A study of Homo sapiens with 12 samples.

Results

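The Sm protein mRNAs described here are the messenger RNAs of 10 genes, chosen by symbol from the 57773 genes of the RNA tables: SNRPB, SNRPD1, SNRPD2, SNRPD3, SNRPE, SNRPF, SNRPG, SNRPA1, SNRPB2 and SNRPC. Only 7 of them (SNRPB to SNRPG in that order) encode proteins of the Sm ring, so the name Sm core holds for those 7. The other 3 encode proteins of a single particle, SNRPA1 and SNRPB2 of the U2 snRNP and SNRPC of the U1 snRNP. All 10 were found in both RNA tables and among the 19892 genes of the footprint sheets.

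Proximity-CLIP was run in HEK293 cells, a human embryonic kidney line, of the T-REx kind that carries transgenes switched on by doxycycline. APEX2, an engineered peroxidase that attaches biotin to proteins close to it, was expressed as V5-APEX2-NES, which carries a nuclear export signal and marks the cytoplasm (the NES line), as V5-H2B-APEX2, a histone fusion that marks chromatin (the H2B line), or as Connexin43-EGFP-APEX2, which marks cell contacts (the Connexin43 line). T-REx cells without APEX2 were the negative control. The control included, cells were labelled with 4-thiouridine and induced with doxycycline over 16 h, then given biotin-phenol over the last 30 min, and the 12 samples are 12 groups of 1: total RNA, streptavidin-bound RNA and footprints in each of the 4 lines. Each fusion is expressed from an inducible transgene in a stable line, and the control carries no APEX2 of any kind. Bound RNA of the control, NES and Connexin43 lines is in both the 2016 and the 2017 table, and H2B bound RNA only in the latter. The sources used here do not state whether the tables are independent experiments, so a repeat counts as the same sample, and no p-value is given.

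Sm proteins assemble as a ring of small subunits around a uridine-rich site of the spliceosomal small nuclear RNAs. The proteins are made in the cytoplasm, where the SMN complex loads them onto the snRNA, and the finished snRNP returns to the nucleus to splice pre-mRNA. Their mRNAs therefore serve a nuclear machine from the cytoplasm, and each begins as an intron-bearing transcript on chromatin.

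The first 150 coding bases of 4 members are shown because base composition goes with the RNA differences given further on. The sequences are from the GENCODE 29 transcripts on GRCh38, with T in capitals because 4-thiouridine takes the place of uridine, the base read as T. SNRPF and SNRPG are members whose bound RNA rose in the H2B line, SNRPD2 and SNRPB the members whose bound RNA fell there.
SNRPF: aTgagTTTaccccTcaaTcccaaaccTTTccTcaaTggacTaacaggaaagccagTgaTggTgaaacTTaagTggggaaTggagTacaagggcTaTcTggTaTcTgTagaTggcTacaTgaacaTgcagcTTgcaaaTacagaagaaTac
SNRPG: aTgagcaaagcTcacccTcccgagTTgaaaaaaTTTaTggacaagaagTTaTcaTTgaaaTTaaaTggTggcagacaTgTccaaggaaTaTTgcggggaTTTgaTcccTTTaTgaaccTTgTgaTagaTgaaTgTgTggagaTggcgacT
SNRPD2: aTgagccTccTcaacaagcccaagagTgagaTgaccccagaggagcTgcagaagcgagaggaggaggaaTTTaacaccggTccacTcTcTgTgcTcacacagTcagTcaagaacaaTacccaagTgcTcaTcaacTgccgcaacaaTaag
SNRPB: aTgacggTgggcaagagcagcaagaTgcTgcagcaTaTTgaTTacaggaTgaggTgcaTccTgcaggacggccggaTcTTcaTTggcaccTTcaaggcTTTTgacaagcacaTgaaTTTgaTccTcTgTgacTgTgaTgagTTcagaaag
The stretch of SNRPG holds 41 T and that of SNRPD2 holds 23. SNRPF and SNRPB hold 35 and 37 T in it, so these do not differ in the same way. Over the whole coding sequence the uridine share was 24.9% in SNRPF and 25.8% in SNRPE, and 16.0% in SNRPD2 and 19.0% in SNRPB. The share of G and C in the same coding sequences was 41.4% in SNRPF, 39.4% in SNRPG, 54.6% in SNRPD2 and 59.8% in SNRPB.

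The members lie on 9 chromosomes in hg19. SNRPB (ENSG00000125835) is at chr20:2442280-2451499 on the minus strand and SNRPB2 (ENSG00000125870) at chr20:16710606-16722421 on the plus strand. SNRPD1 (ENSG00000167088) is at chr18:19192228-19210417, plus, SNRPD2 (ENSG00000125743) at chr19:46190712-46195827, minus, and SNRPD3 (ENSG00000100028) at chr22:24951471-25005947, plus. SNRPE (ENSG00000182004) is at chr1:203830731-203839678, plus, SNRPF (ENSG00000139343) at chr12:96252706-96297606, plus, and SNRPG (ENSG00000143977) at chr2:70508494-70520903, minus. SNRPA1 (ENSG00000131876) is at chr15:101821715-101835487, minus, and SNRPC (ENSG00000124562) at chr6:34725183-34741571, plus. These spans are whole genes with their exons and introns, and the RNA values are per gene.

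The RNA libraries held from 8959049 to 56785950 assigned reads, of which protein-coding genes took 3.50% to 60.1%. The lowest share was in the 2016 total RNA, whose column names no line and served all lines of that table. Markers of fibroblast-like cells, COL1A1 and COL3A1 among them, summed to 1371 RPKM (reads per kilobase and 1000000 reads) in the 2016 control bound RNA, to 283 RPKM in the control of 2017, to 129 and 205 RPKM in NES, to 127 and 89.8 RPKM in Connexin43, and to 7.79 RPKM in H2B. All 11 tested of 12 such markers were at least 2-fold lower in H2B than in NES, with COL1A1 at 0.305 against 6.83 RPKM and COL3A1 at 0.133 against 5.76 RPKM, and their part in the members' values was not tested. In total RNA of 2017 the same markers summed to 24.7 RPKM in the control, 17.9 in NES, 12.04 in H2B and 49.8 in Connexin43. The total RNA of 2016 held 3.19 RPKM of them. H2B and NES thus stood closer in total RNA than in bound RNA. Whether capture or carry-over of these RNAs differed between bound libraries was not tested. In such bulk libraries fewer cells of a type and less RNA per cell cannot be told apart. Of 6 HEK293 markers, KRT8 and KRT18 passed the filter on low values and PAX2 lay between 0 and 0.104 RPKM. Of 5 blood markers 3 or 4 were above 0 in every library, with bound RNA sums of 0.864 to 2.56 RPKM and a total RNA sum of up to 34.5 RPKM, in H2B. The 3 liver markers summed to at most 0.605 RPKM.

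The 10 mRNAs kept a steep order in total RNA. SNRPD2, which encodes the ring subunit that pairs with the product of SNRPD1, was the most abundant per length in each of the 4 lines of 2017, with 129 RPKM in the control, 47.7 in NES, 60.2 in H2B and 43.3 in Connexin43. SNRPA1, whose product binds U2 snRNA together with that of SNRPB2, was the least abundant, with 0.816, 0.646, 0.864 and 0.480 RPKM in the same lines. The highest member thus exceeded the lowest by 158-fold in the control and by 90.2-fold in Connexin43. The control held more of SNRPD2 than the other lines, and Connexin43 held the least of 10 of 10 members.

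Bound RNA of the H2B line had another order. SNRPE, a ring subunit, stood first with 41.5 RPKM, followed by SNRPD3 with 29.1, SNRPF with 23.8, SNRPC with 15.1, SNRPG with 12.9 and SNRPB with 11.8 RPKM. SNRPD1 and SNRPD2 came next with 9.97 and 9.92 RPKM, and SNRPA1 and SNRPB2 last with 4.56 and 4.43 RPKM. Both of these last pairs lay within their counting SE, which was 0.309 and 0.305 RPKM for the first and 0.135 and 0.188 RPKM for the second. In NES bound RNA of 2017 the order began with SNRPD2 at 24.2 and SNRPB at 22.0 RPKM, and SNRPF stood ninth at 2.16 RPKM. The span from the highest to the lowest member was 9.36-fold in H2B and 36.3-fold in NES.

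**Figure D1:**
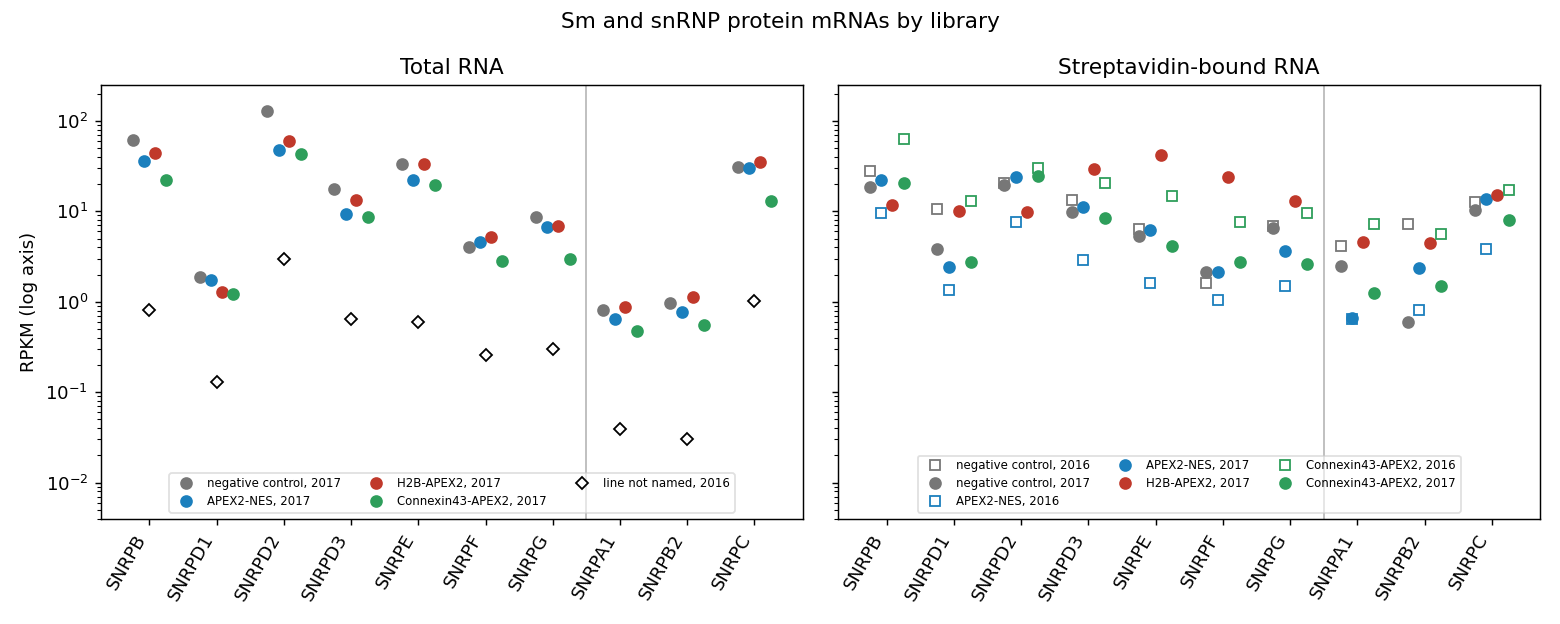
RPKM of the 10 member mRNAs (log axis) in total RNA at left and in streptavidin-bound RNA at right, 1 point per library, coloured by line, with filled circles for the table of 2017 and open symbols for that of 2016. The H2B points of SNRPE, SNRPF, SNRPD3 and SNRPG lie above every other bound library, those of SNRPB and SNRPD2 at 11.8 and 9.92 RPKM lie below all but the 2016 NES library.

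Bound RNA of SNRPF, SNRPE, SNRPD3 and SNRPG, all ring subunits, was highest in the H2B library. SNRPF read 23.8 RPKM in H2B, against 2.16 in the control, 2.16 in NES and 2.72 in Connexin43 of 2017, and 1.62, 1.05 and 7.54 RPKM in the control, NES and Connexin43 of 2016. The H2B value was above all 6 others, and it was 11.0 times that of NES in the same table. SNRPE read 41.5 RPKM in H2B, against 5.40, 6.24 and 4.15 in the control, NES and Connexin43 of 2017 and 6.34, 1.63 and 14.7 in 2016. SNRPD3 read 29.1 RPKM in H2B, against 9.83, 11.1 and 8.37 in 2017 and 13.3, 2.91 and 20.6 in 2016. SNRPG, the ring subunit between SNRPE and SNRPD3 in the assembled particle, read 12.9 RPKM in H2B, against 6.52, 3.67 and 2.62 in 2017 and 6.80, 1.48 and 9.62 in 2016. For these 3 the H2B library again stood above all 6 others.

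SNRPD1 and SNRPA1 were high in H2B among the libraries of 2017, and a 2016 library reached their level. SNRPD1 read 9.97 RPKM in H2B, 3.88 in the control, 2.40 in NES and 2.75 in Connexin43, with 10.5, 1.34 and 13.2 in 2016. SNRPA1 read 4.56 RPKM in H2B, 2.52 in the control, 0.666 in NES and 1.25 in Connexin43, with 4.10, 0.651 and 7.28 in 2016.

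SNRPB and SNRPD2 went the other way. SNRPB, whose product pairs with SNRPD3, read 11.8 RPKM in H2B, 18.5 in the control, 22.0 in NES and 20.4 in Connexin43, with 28.3, 9.51 and 63.8 RPKM in the 3 lines of 2016. SNRPD2 read 9.92 RPKM in H2B, 19.5, 24.2 and 24.5 in the other lines of 2017, and 20.7, 7.54 and 30.4 in 2016. Within 2017 the H2B library was the lowest for both, and the 2016 NES library was lower still.

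The H2B values of SNRPB2 and SNRPC lay inside the range of the other bound libraries of both years. Among the libraries of 2017 alone H2B was the highest for both, as for SNRPD1 and SNRPA1. SNRPB2 read 4.43 RPKM in H2B, 0.595 in the control, 2.36 in NES and 1.49 in Connexin43, and 7.26, 0.807 and 5.63 in 2016, so the 2 control values bracket all others. SNRPC, the U1 protein that helps U1 hold the 5' splice site, read 15.1 RPKM in H2B, 10.4, 13.8 and 8.01 in the other lines of 2017, and 12.6, 3.83 and 17.1 in 2016.

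Chromatin against cytoplasm was compared as bound minus total RNA in the H2B line less the same in the NES line, on the log2(RPKM + 1) scale and relative to the median gene tested. That scale understates the change of low genes. On it 5 of 10 members were at least 2-fold higher in H2B, where 25.1% of the 5055 genes tested were, and 2 were at least 2-fold lower, where 24.9% were. The members that rose were SNRPF (2.80, counting SE 0.08), SNRPE (1.97, SE 0.08), SNRPD1 (1.95, SE 0.14), SNRPG (1.54, SE 0.10) and SNRPA1 (1.54, SE 0.09). Among the libraries compared SNRPA1 reached 1 RPKM only in H2B bound RNA, and so passed the filter on low values through it. Those that fell were SNRPD2 (-1.55, SE 0.06) and SNRPB (-1.13, SE 0.06). SNRPD3, SNRPB2 and SNRPC differed by 0.83, 0.42 and -0.07 and did not pass. The median was 1.19 over the 10 members and 1.54 over the 7 ring subunits, against 0.08 over protein-coding genes tested. With bound RNA alone SNRPB did not pass (-0.93) and SNRPD3 did (1.23), which leaves 1 member lower.

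The order of these differences went with GC content. Across the 10 members Pearson's r between the difference and the GC content of the longest transcript was -0.83 (Spearman's rho -0.77), and across the 2847 protein-coding genes with both values it was -0.58 (rho -0.68). These are correlations across genes that share the same 4 libraries and are not independent. SNRPF had 35.4% GC, SNRPE 39.0%, SNRPG 39.7%, SNRPD1 40.5%, SNRPD2 54.9% and SNRPB 57.8%. The fifth of genes with the lowest GC content had a median difference of 1.12, and 56.7% of it was at least 2-fold higher in H2B. It holds SNRPF, SNRPE, SNRPG, SNRPD1 and SNRPB2. SNRPD2 and SNRPB are in the fourth of these groups, counted from low GC content, whose median was -0.58 with 30.4% at least 2-fold lower. With the GC trend of protein-coding genes removed, 2 of 10 members were above 2-fold, SNRPF at 1.498 and SNRPA1 at 1.05, where 12.1% of 2852 genes were, and 1 was below, SNRPD2 at -1.03, where 13.4% were. These counts are near the shares over all genes. On that scale SNRPE was at 0.80, SNRPD1 at 0.88, SNRPG at 0.42, SNRPB at -0.30 and SNRPB2 at -0.83, the last of them at 0.42 before.

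**Figure D2:**
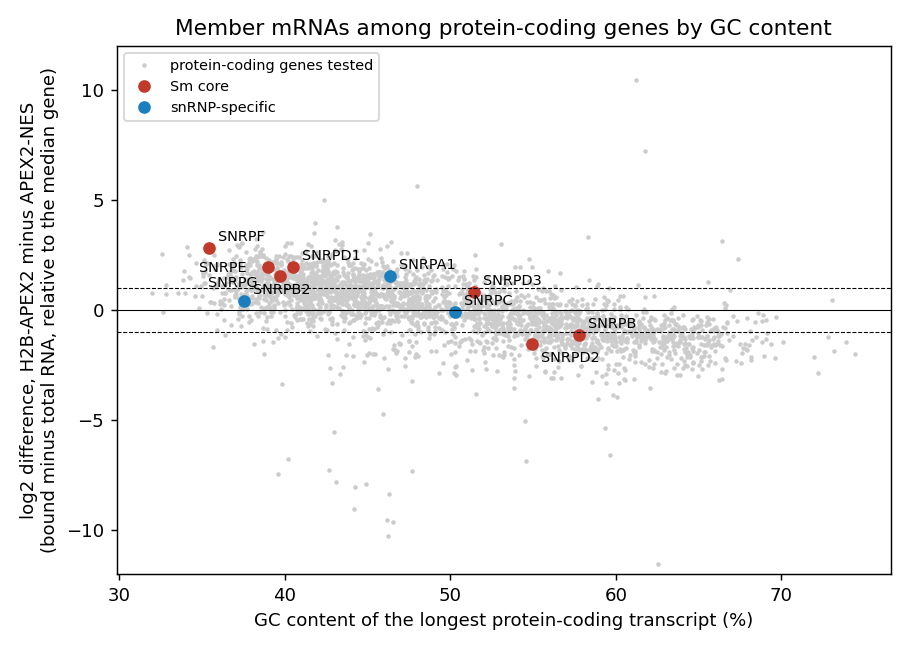
The log2 difference of bound minus total RNA between the H2B and NES lines against the GC content (%) of the longest protein-coding transcript, for 2847 protein-coding genes (grey) and the 10 members (red for the ring, blue for the 3 others). Dashed lines mark a 2-fold difference. SNRPF at 35.4% GC lies highest of the members at 2.80 and SNRPD2 at 54.9% lowest at -1.55.

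SNRPG and SNRPE have many processed copies elsewhere in the genome, so their reads could be split between near-identical sequences. The 20 listed copies of SNRPG held 13.1% to 35.7% of the reads of SNRPG and its copies in a library, and the 9 of SNRPE held 8.59% to 18.8%. With these reads added to each member, H2B minus NES was 1.59 for SNRPG and 1.93 for SNRPE. SNRPN, the paralog of SNRPB that is known from neurons, had 0 to 48 reads in the 12 libraries, of which 9.24 were in H2B bound RNA.

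The negative control shows the make-up of the RNA captured without APEX2. Values scaled within a library do not give its amount. In the H2B line 6 of 10 members were at least 2-fold above it, where 25.2% of 7543 genes were, and 0 were 2-fold below, where 17.2% were. SNRPF (3.25, counting SE 0.06), SNRPE (3.01, SE 0.06), SNRPB2 (2.05, SE 0.09), SNRPD3 (1.76, SE 0.05), SNRPD1 (1.45, SE 0.08) and SNRPG (1.17, SE 0.06) rose. SNRPA1 at 0.94, SNRPC at 0.78, SNRPB at -0.33 and SNRPD2 at -0.63 did not pass. SNRPB2 thus rose against the control, whose 2017 library held 0.595 RPKM of it, and was at 0.42 against NES. Of the libraries compared with the control here, SNRPB2 reached 1 RPKM only in H2B, and so passed the filter on low values through it. The 2016 control held 7.26 RPKM of SNRPB2, above the 4.43 RPKM in H2B. SNRPA1 rose against NES and was at 0.94 against the control. With the GC trend removed 4 of 10 passed, SNRPB2 at 1.12 among them, where 14.1% of 4538 genes did. SNRPD1 (0.59) and SNRPG (0.28) did not. Without centring SNRPG was at 0.89 and did not pass.

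In neither of the other lines did a member pass 2-fold against the control in both tables. For NES 0 of 10 were higher, where 1.65% of 9266 genes were, and 0 were lower, where 1.03% were. The 10 differences ran from -0.66 (SNRPD1) to 1.28 (SNRPF) in 2016 and from -0.91 (SNRPA1) to 1.24 (SNRPB2) in 2017. SNRPF was at 0.16 in 2017 and SNRPB2 at -0.56 in 2016, so the member past 2-fold was another in each table. For Connexin43 0 of 10 were higher, where 2.50% of 11289 genes were, and 0 were lower, where 2.03% were. Its differences ran from -0.14 (SNRPB2) to 1.88 (SNRPF) in 2016 and from -0.71 (SNRPG) to 0.99 (SNRPB2) in 2017. SNRPF at 1.88, SNRPB at 1.32 and SNRPE at 1.27 were past 2-fold in 2016 and were at 0.58, 0.47 and 0.03 in 2017. The 3 comparisons share the control libraries. The members' NES and Connexin43 bound values therefore lay, relative to the median gene, within 2-fold of the capture without APEX2 in at least 1 table.

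**Figure D3:**
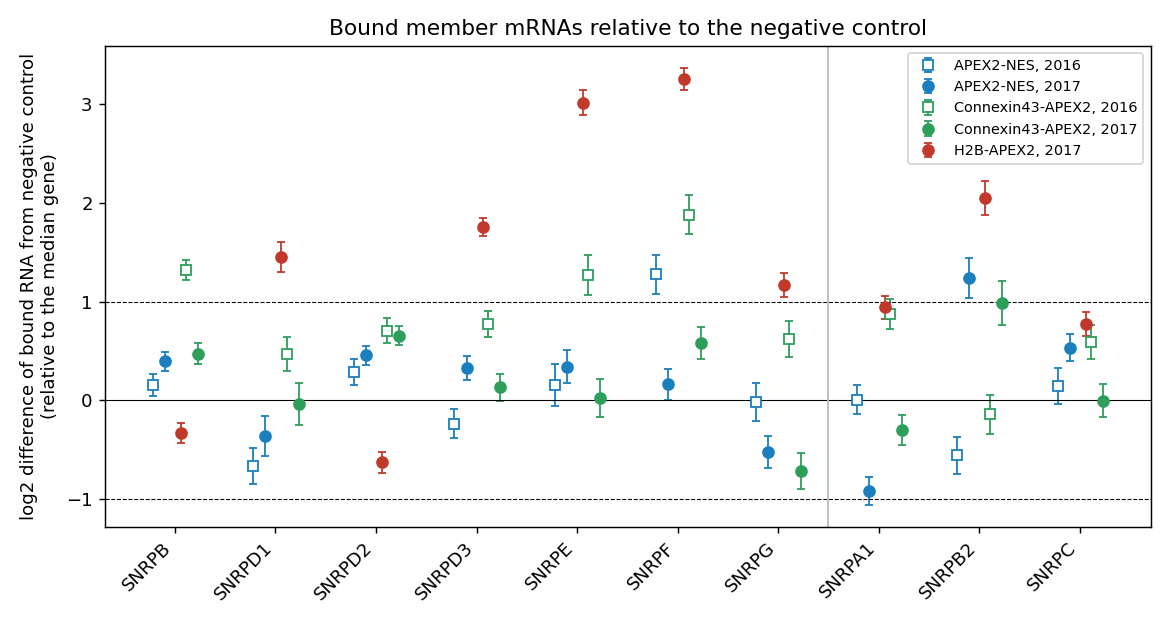
Log2 difference of bound RNA, line minus control, with the median gene at 0, for each member in the NES, Connexin43 and H2B lines, with open squares for 2016, filled circles for 2017 and bars for the 95% counting interval. H2B points of 6 members lie above the upper dashed line of 2-fold, and no NES or Connexin43 member is past either line in both tables.

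Cell contacts were compared with the cytoplasm in both tables. No member passed 2-fold in both: 0 were higher in Connexin43 than in NES, where 0.197% of 5594 genes were, and 0 were lower, where 4.08% were. All 10 lay above the median gene in 2016, from 0.16 (SNRPB2) to 0.91 (SNRPB) with a median of 0.50. In 2017 the range was -0.15 (SNRPE) to 0.92 (SNRPF) with a median of 0.60, and 7 of 10 lay above 0. SNRPB, at 0.91 and 0.74, and SNRPD1, at 0.88 and 0.61, had similar values in both tables, while SNRPE was at 0.86 and -0.15 and SNRPD3 at 0.76 and -0.13. The protein-coding medians were 0.07 and 0.03. The median gene itself differed by 1.72 in 2016 and by -0.15 in 2017, and the values here are relative to it.

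Connexin43 was compared with chromatin in the table of 2017. SNRPB (1.94, counting SE 0.07) and SNRPD2 (1.92, SE 0.06) were higher in Connexin43, 2 of 10 members where 25.2% of 4810 genes were. SNRPE (-2.04, SE 0.09), SNRPF (-1.81, SE 0.09) and SNRPD1 (-1.26, SE 0.14) were lower, 3 of 10 where 24.0% were. Both counts are near the shares over all genes. The remaining 5 lay between -0.89 (SNRPD3) and 0.75 (SNRPC), with SNRPG at -0.71 and SNRPA1 at -0.73. This comparison shares the H2B libraries with the one above. Without the GC trend 1 member was higher, SNRPD2 at 1.29, where 10.2% of 2652 genes were, and 1 lower, SNRPD3 at -1.09, where 9.16% were.

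Bound against total RNA within a line gave values that turned on the table. In H2B, SNRPD1 at 1.55 and SNRPF at 1.28 were higher in bound RNA, 2 of 10 where 18.7% of 5143 genes were. SNRPD2 at -3.20, SNRPB at -2.53 and SNRPC at -1.87 were lower, 3 of 10 where 33.2% were. SNRPE was at -0.42 and SNRPG at 0.11. In the control of 2017 SNRPD2, SNRPB and SNRPC were likewise at -3.35, -2.37 and -2.19, while SNRPE was at -3.12 and SNRPF at -1.35. Within 2017 the mRNAs low in bound H2B RNA thus stood at a similar distance from their total RNA in the control, and SNRPE and SNRPF did not. The 2016 control differed, with SNRPD2, SNRPB and SNRPC at 0.05, 1.62 and 0.35, SNRPE at -0.20 and SNRPF at -1.34. With the GC trend removed 0 members were higher in H2B bound RNA, where 14.1% of 2960 genes were, and 4 were lower, where 14.9% were, namely SNRPD2, SNRPB, SNRPC and SNRPE.

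In the lines with 2 tables the sign differed between them for 3 of 8 members tested in NES, 7 of 10 in Connexin43 and 7 of 10 in the control. In NES 8 of 10 members passed the filter, and 0 were higher, where 5.78% of 3704 genes were, and 0 lower, where 5.70% were. SNRPB was at 1.40 in 2016 and -0.83 in 2017, and SNRPE at -0.43 and -1.81. In Connexin43 0 of 10 were higher, where 3.36% of 6430 genes were, and 0 lower, where 6.25% were, with SNRPB at 2.62 and -0.52. In the control 0 were higher, where 5.52% of 8268 genes were, and 1 was lower, where 6.36% were. That member was SNRPF, at -1.34 in 2016 and -1.35 in 2017. The 2016 value turned positive, to 1.06, without centring and was 0.47 without the filter on low values. In 2016 total RNA SNRPF had 95 reads.

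Footprints are short stretches of RNA protected by crosslinked proteins, and their sheets count reads in called clusters by region. The libraries held 185487 reads in the control, 575990 in NES, 1741844 in H2B and 270633 in Connexin43. The 10 members took 1057, 1372, 1431 and 1212 RPM (reads per 1000000 footprint reads) in these lines. A value of 0 in these sheets means that no cluster was called, which depends on depth, and the H2B library was the deepest.

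Some members had footprints in every line and others in a few. SNRPD1 had 43 reads in the control, 136 in NES, 575 in H2B and 50 in Connexin43, which is 232, 236, 330 and 185 RPM. SNRPD3 had 47, 150, 472 and 81 reads, or 253, 260, 271 and 299 RPM, nearly the same share in each. SNRPA1 had 148 reads in 24 clusters in H2B and no cluster in the other lines. SNRPE had 113 reads in H2B, 5 in Connexin43 and no cluster in the control or NES, although NES bound RNA held 425 reads of it. SNRPG had 18 reads in H2B (10.3 RPM), 8 in the shallower Connexin43 library (29.6 RPM) and none called elsewhere. SNRPF had 18 reads in the control, 128 in NES, 594 in H2B and no cluster in Connexin43. SNRPD2 had 24, 55, 3 and 55 reads and was the member with the fewest in H2B.

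The footprint comparison counted a ratio of at least 4-fold whose exact 95% interval excluded 2-fold, with intervals that cover counting error only. From NES to H2B 2 of 10 members were higher, where 16.7% of 9222 genes were, and 1 was lower, where 10.6% were. The 2 higher were SNRPE and SNRPA1, which had no cluster in NES and so have no fold. SNRPD2 was lower at a ratio of 0.0180 (interval 0.00361 to 0.0555). Its 55 NES reads lay in 1 cluster with no listed region, and its 3 H2B reads in 1 cluster in coding sequence. Over exonic reads alone 0 members were lower, where 11.5% of 8335 genes were. SNRPF, whose bound RPKM in H2B was 11.0 times that in NES, had a footprint ratio of 1.53 (1.27 to 1.87), and SNRPB had 0.491 (0.417 to 0.578). From the control to H2B 2 of 10 were higher, where 8.99% of 8930 genes were, again SNRPE and SNRPA1. SNRPD2 alone was lower there, at 0.0133 (0.00257 to 0.0438), where 6.10% were. SNRPF had 3.51 (2.20 to 5.97). These comparisons share the H2B library.

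From H2B to Connexin43 SNRPD2 was higher at a ratio of 118 (38.3 to 590), 1 of 10 where 10.4% of 9044 genes were, and SNRPF and SNRPA1 were lower with no cluster in Connexin43, 2 of 10 where 16.7% were. From NES to Connexin43 7 members had the 10 reads needed, 0 were higher, where 6.27% of 6893 genes were, and 1, SNRPF, was lower, where 11.6% were. From the control to NES 0 of 7 were higher, where 10.6% of 6820 genes were, and 0 lower, where 7.04% were. SNRPB had a ratio of 2.68 (1.83 to 4.06) there. From the control to Connexin43 0 of 7 were higher, where 11.8% of 5708 genes were, and SNRPF was lower, where 12.6% were, with 18 reads in the control.

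Intronic footprints were more frequent in H2B. Of the members' footprint reads 23.5% (exact 95% interval 21.8% to 25.2%) were in introns in H2B, 14.3% (9.71% to 19.98%) in the control, 5.82% (4.29% to 7.69%) in NES and 8.54% (5.75% to 12.1%) in Connexin43. Over all genes the shares were 19.9%, 10.4%, 3.94% and 9.80%. On this measure the members followed the order of H2B above the control and NES lowest. Over reads with a listed region the members' shares were 40.9% (38.3% to 43.5%) in H2B and 16.6% (11.3% to 23.0%) in the control. In NES and Connexin43 they were 10.4% (7.69% to 13.6%) and 10.1% (6.80% to 14.2%), so NES was not the lowest there. Those of all genes were 23.4%, 11.8%, 4.67% and 11.1% in H2B, the control, NES and Connexin43. Outside H2B nearly all of the members' intronic reads were those of SNRPD3, whose span overlaps other genes. Without it the 9 other members had 430 intronic reads of 1213 in H2B, 4 of 122 in the control, 0 of 343 in NES and 0 of 223 in Connexin43. This denominator and the omission of SNRPD3 were chosen after seeing the data.

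SNRPB, SNRPD3, SNRPA1 and SNRPE held most of the intronic reads in H2B. SNRPB had 200 of 371 reads in introns in H2B, in 22 of its 29 clusters, and 0 of 250 in NES. Only 34 of those 250 have a listed region, for which the exact interval reaches 10.3%. SNRPA1 had 95 of 148 reads in introns in H2B, SNRPE 64 of 113 and SNRPG 10 of 18. SNRPF had 20 of 594 and SNRPD1 35 of 575, or 6.60% and 11.9% of their reads with a listed region, and SNRPB had 77.8%. SNRPD3 had intronic reads in every line, 24 of 47 in the control, 46 of 150 in NES, 155 of 472 in H2B and 28 of 81 in Connexin43. The span of SNRPD3 overlaps GGT1 on the same strand and GUCD1 on the opposite strand, among other genes. These 2 had 12 and 57 footprint reads of their own in H2B, and 0 and 174 in NES. SNRPB lies under an unnamed protein-coding entry of the same strand with 89 reads in H2B and 102 in NES, and the sources used here do not give how reads were divided between them.

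Exonic footprints fell in different regions of different members. SNRPD1 had 260 reads in the 3' UTR in H2B and 0 in coding sequence, and 83 of 136 in the 3' UTR in NES. SNRPF had 276 reads in coding sequence and 7 in the 3' UTR in H2B, and 61 and 0 in NES beside 48 in the 5' UTR. SNRPE had 45 reads in the 3' UTR and 0 in coding sequence in H2B. Reads in clusters for which the sheets list no region were 216 of 250 for SNRPB in NES, 280 of 575 for SNRPD1 in H2B, 291 of 594 for SNRPF in H2B and 55 of 55 for SNRPD2 in NES. Shares over all reads are therefore lower than shares over reads with a listed region.

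**Figure D4:**
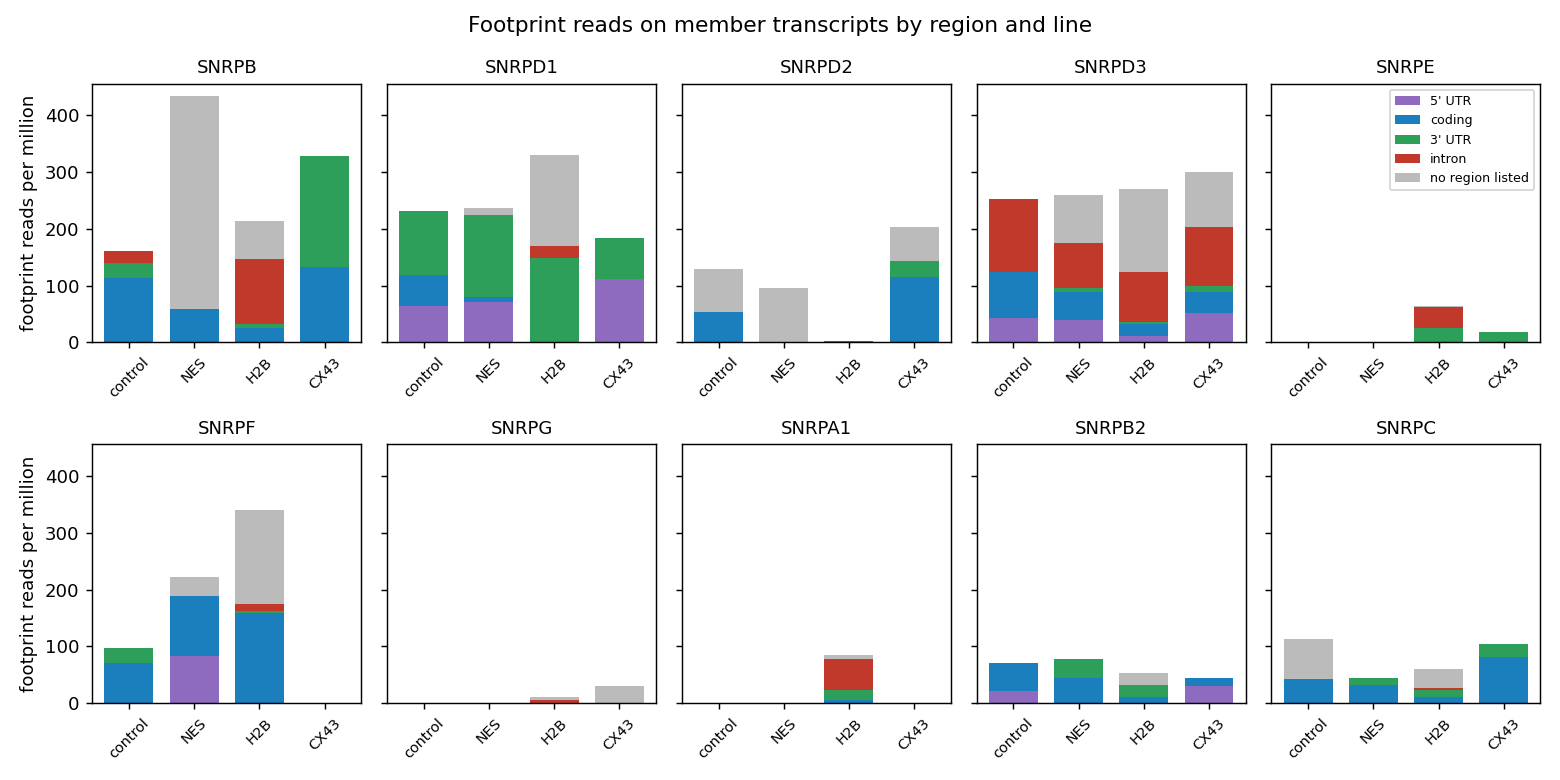
RPM of footprints on each member, stacked by region, in the control, NES, H2B and Connexin43 lines. SNRPA1 has a bar in H2B alone, SNRPD2 has 1.72 RPM in H2B, and red intronic parts stand in the H2B bars of SNRPB, SNRPE and SNRPA1 and in every bar of SNRPD3.

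Of the ring subunits with a value, SNRPD1 had the most exonic footprint reads per bound RNA read in every line. For members with at least 5 such reads, the log2 ratio relative to the median gene was 1.90 for SNRPD1 in the control, 2.75 in NES, 1.34 in H2B and 1.73 in Connexin43, at percentiles 91.7, 95.4, 75.1 and 86.2 of the genes compared. SNRPD3 lay below the median gene in all lines, at -0.68, -1.03, -2.60 and -1.09. SNRPE, whose bound RNA was the highest in H2B, had -3.20 there, at percentile 8.25. SNRPF had 0.54 in the control, 1.72 in NES and -0.73 in H2B. Reads with no listed region are left out of these ratios. SNRPG had no value in any line, SNRPE none in the control or NES, SNRPD2 none in NES or H2B, and SNRPF none in Connexin43.

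Other snRNP genes were counted from lists that were written with earlier results of these data known. Of genes for assembly of the particle 7 of 17 in the table passed the filter on low values and 6 were at least 2-fold higher in H2B than in NES, 0 lower, with a median of 1.81, beside 25.1% higher and 24.9% lower over all genes. COIL, the marker protein of Cajal bodies, was at 2.44 and SMN1, the core of the SMN complex, at 2.05, its reads hard to tell from those of its near-identical copy SMN2 (2.03), which is also among the 6. PRMT5, which methylates Sm proteins, was at 0.17. Of the 13 genes of the U2 snRNP and U2AF, 5 were higher and 1 lower with a median of 0.25, from DDX46 at 2.50 to SF3B5 at -2.29. Of 6 tested LSm genes, only some of whose proteins form rings like those of the Sm proteins, 3 were higher and 2 lower. Their median was 0.89, with LSM3 at 1.56, LSM14A at 1.52 and LSM7 at -1.30 among them. Of 9 tested U4/U6 and U5 genes 1 was higher, PRPF31 at 1.18, and 0 lower, with a median of -0.25. Of 3 tested U1 genes LUC7L3 was at 1.67 and SNRPA at -1.12. SNRNP70, also counted as lower, was listed at 0 in H2B bound RNA against 5.79 RPKM in NES, so it has no fold. The members' own median of 1.19 lay between those of the LSm and assembly genes.

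**Figure D5:**
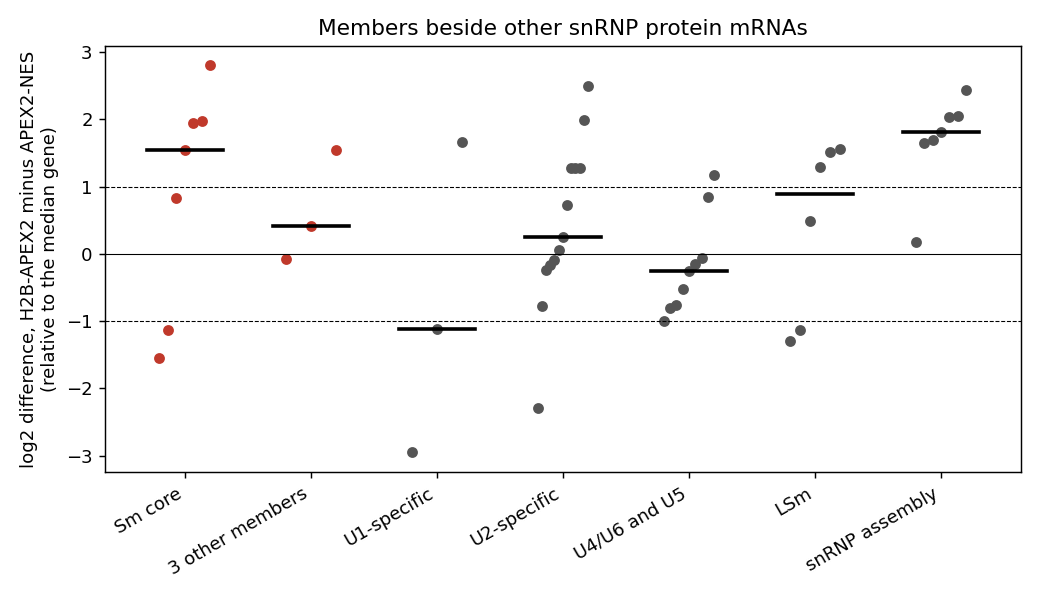
Log2 difference of bound minus total RNA between the H2B and NES lines for the 7 ring mRNAs and the 3 other members (red) and for the tested genes of 5 other snRNP lists (grey), with the median as a bar and dashed lines at 2-fold. The ring spans -1.55 to 2.80, and the lowest U1 gene is SNRNP70, listed at 0 in H2B bound RNA.

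The genes whose RNA profile was most like the mean of the 7 ring mRNAs were SOD1 (Pearson's r 0.99), RPL23 (0.98), UQCRH (0.98), COPS6 (0.98) and RPL6 (0.97). Likeness was measured over the 12 RNA libraries among 822 genes that averaged 5 RPKM or more, and bound and total libraries differ strongly, which lifts all such values. Among the ring mRNAs themselves SNRPE had 0.98 and SNRPB 0.81, each against a mean that contains it, which lifts the value. SNRPD1 and SNRPF averaged less than 5 RPKM and were not compared. Over the 7 bound libraries alone the pairs of members ranged from SNRPD1 with SNRPD2 at -0.51 to SNRPD3 with SNRPE at 0.97.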

How the data were processed

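Expected counts and RPKM per gene were deposited in the tables of 2016 and 2017, with 0.001 reads and 1e-07 RPKM standing for 0. For footprints the authors deposited, per gene and region, counts of called clusters and of crosslinked reads. Per the submitters' processing notes the build was hg19 and the tools were bcl2fastq 2.17.1 and TopHat. The version of TopHat, the read counter, its annotation and the cluster caller are not given in these sources. Libraries were stranded, with rRNA depletion for total RNA alone, per the labels' protocols. A 2016 column with a line's name was taken as bound RNA.

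Genes that averaged 1 RPKM or more across the libraries of a comparison were kept. Their log2(RPKM + 1) values were subtracted, centred on the median gene tested, and called at 2-fold where all tables gave the same direction. Lines were compared as bound minus total RNA, lines with the control as bound RNA. A delta-method counting SE was computed from the reads. Footprint shares were compared where both lines together had 10 reads or more, with exact (Clopper-Pearson) 95% intervals on the deposited counts. There were 10 RNA and 6 footprint comparisons, with no test between samples since each group has 1. PCR reads carry counting error only in these intervals.

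The members, the lists, and the rule for named genes (the 10 members, SNRPN, processed copies, the 2 highest and 2 lowest tested genes of each list and the 5 most alike profiles) were chosen with earlier results of these data known. Sequences and GC content come from GENCODE 29, joined by Ensembl ID. On simulated counts with counting error only, the footprint rule was run as stated and the RNA rule only at 1.5-fold for H2B minus NES. The RNA rule of 2-fold in all tables was not tested in this way. Python 3.11.15, numpy 2.4.6, pandas 2.3.3, scipy 1.17.1, matplotlib 3.10.9, R 4.3.3 and edgeR 4.0.16 (TMM factors for an alternative) were used.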

Additional observations from a re-analysis of the deposited data

How the results depend on the processing

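No paired analysis was possible because each group has 1 sample. Of the 308 recomputed counts of members past a threshold, 244 stayed within 1.5 times the reported count and 64 did not. The cause of these moves was not tested except where fewer genes or a lower threshold give it by construction. Adding the reads of processed copies, chosen after seeing the data, moved no count.

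Counts are of the members tested, at most 10. The shares over all genes under the same setting are given where the text turns on them. With the GC trend removed, members higher and lower were 2 and 1 in H2B minus NES (12.1% and 13.4% of all genes), 1 and 1 in Connexin43 minus H2B (10.2% and 9.16%), and 0 were higher in bound minus total RNA of H2B (14.1%). With bound RNA alone 1 was lower in H2B minus NES (21.5% of all genes) and 5 in Connexin43 minus H2B (21.5%). With bound minus total 1 was higher in Connexin43 minus control (5.3%). A mean RPKM of at least 5 left 1 lower in H2B minus NES (32.2%), and 3 higher and 1 lower in H2B minus control (34.1% and 33.1%). It left 4 higher in bound minus total of H2B (37.7%) and 0 lower in that of the control (19.5%). At 1.5-fold 3 were higher in Connexin43 minus NES (2.31%), 1 in Connexin43 minus control (8.41%) and 4 in bound minus total of H2B (32%). At the same fold 6 were lower in Connexin43 minus H2B (35.2%) and 1 in H2B minus control (29.4%). With no filter 1 was lower in NES minus control (1.55%) and 4 were higher in bound minus total of H2B (6.88%). In that of the control 0 were lower (0.193%), where SNRPF of 2016 reversed to 0.47. With no centring 1 was lower in NES minus control (7.81%) and 5 were higher in bound minus total of H2B (42.7%). In that of the control 0 were lower (0.399%), where SNRPF of 2016 reversed to 1.06. A pseudocount of 0.1 gave 1 higher in Connexin43 minus NES (1.11%). It gave 2, 2 and 4 lower in bound minus total of NES, Connexin43 and the control (21.6%, 18.2% and 17.9%). There TMM-scaled counts gave 4, 5 and 7 lower (25.8%, 23.5% and 24.8%).

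The table of 2016 alone gave 1 member higher in NES minus control (3.95% of all genes) and 3 in Connexin43 minus control (13.6%), that of 2017 alone 1 and 1 (8.06% and 11.4%). In bound minus total the 2016 table gave 1, 4 and 2 higher in NES, Connexin43 and the control (9.23%, 16.3% and 16.5% of all genes). It gave 0 lower in the control (3.16%). The 2017 table gave 6, 1 and 7 lower in the same lines (29.2%, 29.3% and 33.2%).

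For footprints, a 2-fold rule with an interval past 1 gave 2 lower from NES to H2B (24.2% of all genes) and 2 higher from NES to Connexin43 (16%). It gave 2 higher from H2B to Connexin43 (22%) and 1 higher from the control to Connexin43 (25.7%). From the control to NES it gave 2 higher and 1 lower (26.9% and 18.8%). Counting clusters in place of reads gave 1 higher and 0 lower from NES to H2B, 0 higher and 0 lower from H2B to Connexin43 and from the control to H2B, and 0 lower from NES and from the control to Connexin43. Exonic reads alone gave 0 lower from NES to H2B (11.5%), 2 higher from NES to Connexin43 (5.61%), and 2 higher and 1 lower from H2B to Connexin43 (11.1% and 15.1%). They gave 0 higher from the control to H2B (7.56%) and 1 lower from the control to NES (6.59%). With no minimum 1 was higher from NES to Connexin43 (7.8%), and with at least 20 reads 0 were lower from the control to Connexin43 (8.96%).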
